A study of Mus musculus with 46 samples.

Results

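Promoters of the Klf2 locus were tested as inserts placed downstream of a reporter gene that had its own promoter. The 420 constructs described here are those of the Downstream reporter assay in which the inserted fragment is a promoter fragment and the vector carries a promoter, out of 2364 constructs in that table. They hold 23 promoter fragments of the locus, each 450 bp long, in up to 2 orientations, each combined with up to 10 vector promoters taken from the same locus. Of 460 possible combinations, 420 were listed and 40 were not. No construct was listed for P013 and P026 on the + strand. P025 on the − strand had 3 vectors, P026 on the − strand 5, P003 on the + strand 6, P012 on the + strand 7 and P024 on the − strand 9, and the other 39 insert-strands had all 10.

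E14TG2a, the line used, derives from mouse embryonic stem cells, and the cultures were kept in the naive state with 2i+LIF (inhibitors of a pair of kinases, plus a cytokine). Plasmids were introduced by nucleofection, all Downstream sub-libraries together in a single mix, and RNA was collected 24 h later in 3 biological replicates, each a separate transfection. The series has 46 samples, and the 3 cDNA samples of the Downstream mix carry the values used here. All groups share the same cells, time and medium, and differ only in the plasmid. The plasmids were transfected transiently, so inserts were read outside their chromosomal place, and the tables hold reporter barcodes only, so the identity of the cells was not checked here.

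The activity of a construct is the amount of its barcodes in reporter RNA relative to plasmid DNA, and the insert is compared with control inserts in the same vector. The controls were 15 shuffled candidate cis-regulatory elements (cCREs, genomic regions with marks of regulatory activity) and 5 random sequences, in 361 constructs. Another 1364 constructs carried cCREs as inserts. A difference is given throughout as log2 activity of the construct minus the mean log2 activity of the control inserts with the same vector promoter, in the same replicate. The + and − of an insert are those of the deposited table; whether they refer to the genome or to the reporter is not given in the sources used here, and they are separate from the gene strands given with the sequences. The error printed is the SD of the difference over the 3 replicates. The test was limma on the 3 values of the construct against the 3 control means, with Benjamini-Hochberg adjustment over all inserts and a threshold of 0.05. It did not pair the replicates, so its standard error can differ from the SD printed beside a p-value. For P016 + with the P016 vector the SD was 0.15 and the standard error 0.25.

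A promoter is the stretch of DNA at which RNA polymerase II assembles and starts transcription, and it typically holds sites for widely expressed factors around the start. An enhancer acts on a promoter from a distance and in either orientation. Promoter fragments can also act as enhancers of another promoter in reporter assays. Here they were placed downstream of the transcribed reporter. Action of an insert on the vector promoter was not tested apart from activity of the insert itself. Klf2, after which the locus is named here, encodes a Krüppel-like transcription factor of the naive pluripotency network of embryonic stem cells.

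The sequences below are shown because these 6 fragments gave the highest and the lowest values among those with a RefSeq promoter window of GRCm38.p6. Each is the part of the fragment that lies within 250 bases before the gene start, 5′ to 3′ on the strand of the gene. Capitals mark matches to the GC box (GGGCGG), the CCAAT box (CCAAT) or the YY1 motif (AAGATGGCG), on either strand.

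P018, Calr3 (- strand), chr8:72443779-72444028: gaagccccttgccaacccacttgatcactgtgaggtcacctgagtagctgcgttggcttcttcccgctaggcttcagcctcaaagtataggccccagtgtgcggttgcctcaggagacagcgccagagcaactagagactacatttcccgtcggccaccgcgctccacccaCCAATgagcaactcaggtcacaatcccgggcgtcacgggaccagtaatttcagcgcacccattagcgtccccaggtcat
P021, Med26 (- strand), chr8:72548311-72548560: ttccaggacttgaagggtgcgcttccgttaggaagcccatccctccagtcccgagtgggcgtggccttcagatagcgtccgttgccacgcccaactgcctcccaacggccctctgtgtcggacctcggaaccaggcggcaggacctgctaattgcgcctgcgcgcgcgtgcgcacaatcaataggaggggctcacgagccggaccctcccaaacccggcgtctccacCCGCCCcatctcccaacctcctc
P016, Klf2 (+ strand), chr8:72318812-72319061: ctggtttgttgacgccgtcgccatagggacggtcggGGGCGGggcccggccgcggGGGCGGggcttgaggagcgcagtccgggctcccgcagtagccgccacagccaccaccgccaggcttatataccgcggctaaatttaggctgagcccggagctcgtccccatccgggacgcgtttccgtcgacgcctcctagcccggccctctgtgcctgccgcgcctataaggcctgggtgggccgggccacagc
P023, Tmem38a (+ strand), chr8:72571659-72571822: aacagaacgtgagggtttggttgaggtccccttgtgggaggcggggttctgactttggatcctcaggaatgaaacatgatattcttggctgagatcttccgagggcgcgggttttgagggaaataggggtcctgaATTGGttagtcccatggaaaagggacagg
P004, Cyp4f18 (- strand), chr8:72009627-72009876: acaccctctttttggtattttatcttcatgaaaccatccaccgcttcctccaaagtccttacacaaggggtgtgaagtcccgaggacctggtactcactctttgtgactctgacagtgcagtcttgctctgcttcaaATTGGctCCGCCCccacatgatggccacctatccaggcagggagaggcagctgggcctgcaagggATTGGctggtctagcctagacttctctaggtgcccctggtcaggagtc
P001, Zfp882 (+ strand), chr8:71908356-71908605: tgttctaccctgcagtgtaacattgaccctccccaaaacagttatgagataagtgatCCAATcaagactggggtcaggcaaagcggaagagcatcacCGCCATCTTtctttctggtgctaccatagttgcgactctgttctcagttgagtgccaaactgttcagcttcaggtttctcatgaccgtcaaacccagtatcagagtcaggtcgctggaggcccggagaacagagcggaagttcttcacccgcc

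P018 (chr8:72443649-72444099, mm10) lies at a start shared by Calr3, which encodes a calreticulin-like chaperone of the testis, and 1700030K09Rik on the opposite strand. P021 (chr8:72548195-72548645) lies at the start of Med26, a subunit of the Mediator complex that links transcription factors to RNA polymerase II. P016 (chr8:72318657-72319107) holds the Klf2 start, and P023 (chr8:72571658-72572108) lies inside Tmem38a, a cation channel of the sarcoplasmic reticulum, at an internal RefSeq start of that gene. P004 (chr8:72009551-72010001) lies at the start of Cyp4f18, a cytochrome P450 that inactivates leukotriene B4 in myeloid cells, and P001 (chr8:71908245-71908695) at that of Zfp882, a zinc finger gene. Exons and introns were not annotated here, since only gene bounds and start windows were used. The lowest insert, P008 (chr8:72134599-72135049, mm10), lies 239 bp from Tpm4, a tropomyosin gene, and its sequence is not printed here.

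Promoter inserts were on the whole modestly more active than control inserts. Over the 420 constructs the median difference was 0.26 ± 0.03 (SD over 3 replicates; 0.29, 0.23 and 0.24 in replicates 1, 2 and 3), and 276 of them (65.7%) lay above 0. The corresponding medians were 0.18 over the cCRE inserts and −0.12 over the control inserts, each of which was compared with the other controls. The share above 0 was also 65.7% among the cCRE constructs. It was 41.0% among the control constructs and 61.5% over all 2145 constructs with a vector promoter, so promoters did not differ from cCREs in this share. Single promoter constructs ranged from −1.77 to 1.96 and single control constructs from −1.30 to 2.83, so the controls spread as widely as the promoters.

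Of the 420 promoter constructs, 188 (44.8%) were higher than the controls and 59 (14.05%) were lower, by limma at an adjusted p below 0.05. Over all 2145 constructs with a vector promoter, 36.3% were called higher and 18.3% lower. Control constructs against the other controls were called higher in 24.1% and lower in 33.8% of cases. Promoters thus had 58.8% of their constructs called in either direction and controls 57.9%, and it is the direction of the calls in which the shares differed. No test was made of that difference between shares. With the replicate block, 246 promoter constructs were higher and 110 lower, and 82.0% of the control constructs were called. Without replicate 2 the promoter calls were 134 higher and 33 lower.

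Control inserts were cloned in 10 sub-libraries that held no promoter or cCRE insert, while promoters and cCREs shared another 10, so kind of insert and sub-library cannot be told apart in the comparison with controls. Against the cCRE inserts of their own sub-library, a baseline chosen after the data were seen, 128 promoter constructs were higher and 90 lower, with a median difference of 0.03. Against the median of all constructs with the same vector the split was 136 higher and 86 lower. Against the vector promoter without any insert it turned to 75 higher and 172 lower, with a median of −0.21. Control inserts themselves were below the vector promoter alone in all 10 vectors, by 0.07 to 1.02. Each of these baselines subtracts 1 value per vector from all promoter constructs, so the order of the inserts measured in all 10 vectors is the same under each.

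By the mean over vectors and both strands, P018 (Calr3), P021 (Med26) and P016 (Klf2) were the 3 highest fragments. P018 on the − strand gave 1.32, 1.12 and 1.21 in replicates 1, 2 and 3, a mean of 1.22 ± 0.10, which is 2.32-fold. P018 on the + strand gave 1.14, 0.97 and 1.07. P021 on the + strand gave 1.21, 1.09 and 1.08, a mean of 1.13 ± 0.07. All replicates of these insert-strands lay above the highest of the 40 control insert-strands, whose mean was 0.82. P021 on the − strand reached 0.97 ± 0.05.

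P016 on the + strand, with the Klf2 start, gave 1.02, 1.10 and 1.11, a mean of 1.08 ± 0.05 or 2.11-fold. On the − strand it averaged 0.79 ± 0.06, just within the range of the controls and below P023 on the + strand. Both strands of P016, P018 and P021 were higher than the controls in 10 of 10 vectors, and each of those 60 constructs passed the test. P023, in Tmem38a, had the next highest mean over strands, at 0.86 ± 0.07 on the + strand and 0.77 ± 0.05 on the − strand, higher in 10 of 10 vectors on either strand. Against the vector promoter alone the values were smaller, at 0.75 for P018 −, 0.66 for P021 +, 0.61 for P016 + and 0.59 for P018 +. In all, 6 promoter insert-strands lay above the range of the control insert-strands and 2 below it, beside 10 above and 2 below among 147 cCRE insert-strands.

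Of the 44 promoter insert-strands, 27 (61.4%) were higher than the controls and 8 (18.2%) lower by limma, while 9 did not pass the threshold. The share called higher over all 231 insert-strands was 57.1% and that called lower 22.9%, and among the controls 35.0% and 40.0%. Among the 147 cCRE insert-strands the shares were 61.9% and 19.7%, close to those of the promoters. The standard error was 0.05 for every insert-strand, because limma found no more variation in spread between them than sampling gives and pooled it, so p-values are here given only near or above the threshold. As with single constructs, the split moved with the baseline, to 22 higher and 17 lower against cCRE inserts, 24 and 17 against the vector median, and 14 and 27 against the vector promoter alone.

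Below these 4 fragments came others that were higher by smaller amounts. P003, at the start of the zinc finger gene Zfp961, averaged 0.71 ± 0.13 on the − strand and 0.38 on the + strand, the latter over 6 vectors. Between vectors its − strand ranged from 0.01 to 1.96, and 7 of 10 constructs were called higher. P022, at the start of Smim7 and with a bound of the annotated Tmem38a gene inside it, averaged 0.67 on the − strand and 0.29 on the + strand. P014, in which the annotated Ap1m1 gene (a subunit of the clathrin adaptor AP-1) begins or ends, reached 0.60 on the + strand and 0.32 on the − strand. These 3 fragments were higher on both strands, and each of their means lay within the range of the controls.

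P026, at F2rl3, a thrombin receptor gene, was 0.47 on the − strand over 5 vectors. P017, at Eps15l1, an endocytosis gene, gave 0.38 on the + strand and 0.24 on the − strand. P011, at Cib3, gave 0.24 and 0.31, and P007, at the odorant receptor gene Olfr374, gave 0.22 and 0.19. P025, at the co-repressor gene Sin3b, was 0.40 on the − strand, over 3 vectors. Its values ranged from 0.05 to 1.06 between these vectors, and 1 of the 3 constructs was called higher. All of the insert-strand means in this paragraph so far were called higher, and all were within the range of the controls. P012, between genes and 475 bp from Cib3, was called higher on the + strand (0.28, 7 vectors) and not on the − strand (−0.05, adjusted p = 0.36). P009, at Rab8a, a GTPase of vesicle transport, was called higher on the − strand (0.27) and not on the + strand (0.07, adjusted p = 0.16).

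Some inserts were indistinguishable from the control mean at this precision. P010, at the haematopoietic adaptor gene Hsh2d, averaged −0.01 on the + strand and −0.03 on the − strand, with adjusted p-values of 0.90 and 0.59. P013, at Fam32a, averaged −0.03 on the − strand (adjusted p = 0.51). P005, 3085 bp from the nearest annotated gene, was at 0.00 on the + strand (adjusted p = 0.98) and was called higher on the − strand at 0.33. P024, at an internal start of Nwd1, was at 0.01 on the + strand (adjusted p = 0.79) and was called lower on the − strand at −0.32. For each of these means the standard error of 0.05 sets the size of difference that could be seen.

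The lowest inserts were P008 and P004. P008 on the − strand gave −1.25, −1.16 and −1.03 in replicates 1, 2 and 3, a mean of −1.15 ± 0.11, or 0.45-fold of the controls. P004 on the − strand gave −0.77, −0.83 and −0.94, a mean of −0.84 ± 0.09. Both means were lower than those of all 40 control insert-strands, the lowest of which averaged −0.80, although replicate 1 of P004 lay above that value. P004 on the + strand averaged −0.49 ± 0.03, with all 10 vectors below the controls on either strand. Against the vector promoter alone, P004 was at −1.31 on the − strand and −0.95 on the + strand.

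P001 on the + strand, the Zfp882 promoter, averaged −0.49 ± 0.04, from −0.53, −0.49 and −0.46, and on the − strand it was at 0.00 (adjusted p = 0.94). Against the vector promoter alone the + strand was at −0.96. P019, at Cherp, a gene of calcium homeostasis and splicing, was called lower on the − strand at −0.30 ± 0.07 and higher on the + strand at 0.37 ± 0.03. P008 on the + strand averaged −0.17 and P025 −0.10 on the + strand, both called lower. The call for P025 was close to the threshold, at an adjusted p of 0.04.

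Grouped by position, the 36 insert-strands of the 19 fragments that hold an annotated gene end or RefSeq start had a median of 0.30, and the 8 of the 4 fragments without one (P002, P005, P008 and P012) a median of −0.02. The 10 fragments that also served as vector promoters had a median of 0.37 over 19 insert-strands, and the other 13 fragments 0.19 over 25. Over all 231 insert-strands tested the median was 0.20, and the groups were not tested against each other. The ranges of these groups overlapped, from −0.49 to 1.22 for vector promoters and from −1.15 to 0.86 for the others.

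The value of a promoter insert was largely carried over from vector to vector. Insert and strand took 75.5% of the sum of squares of the 420 differences, the vector 11.4%, and the remainder was 13.1%. The corresponding share of insert and strand was 63.9% for cCREs and 29.9% for controls, for which 70.1% was left over. The SD of the remainder was 0.23 for promoters, 0.26 for cCREs and 0.62 for controls. The controls of each vector formed a sub-library of their own, and the part of this in their spread was not tested. Between vectors, the profiles of the 39 promoter insert-strands measured in all of them correlated with r from 0.68 to 0.95, with a median of 0.85 over 45 pairs of vectors that share the same inserts.

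By vector, the median difference of the promoter inserts was highest with P001, at 0.58, and lowest with P014 (−0.10) and P017 (−0.09). The cCRE inserts had the same highest and lowest vectors, with medians of 0.72 for P001, −0.08 for P014 and −0.08 for P017. Between these the order differed. With P021 the median was 0.41 for promoters and 0.17 for cCREs, and with P019 0.33 and 0.14. Both kinds of insert are set against the same control mean of a vector, so part of this likeness is built into the measure. P001, the weakest vector promoter, had only 10 control constructs, against 32 to 40 in the others. Without the P001 vector the median over all promoter constructs was 0.20. The median of the promoter inserts lay below the vector promoter alone in 9 of 10 vectors, the exception being P019, at 0.13 above it.

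The Klf2 promoter P016 as an insert shows the range over vectors. On the + strand its largest difference was with the Rab8a promoter P009, where activity was 2.25, 2.32 and 2.24 in replicates 1, 2 and 3 while the control inserts averaged 0.74, 0.70 and 0.64. The difference was 1.72 ± 0.10 (adjusted p = 1.2e-06), and no replicate of the construct came near the control mean. Its smallest was with P022, at 0.64 ± 0.08, where activity was 3.97, 4.07 and 4.66 against control means of 2.70, 2.50 and 2.93. With the other 8 vectors it was 1.28 (P001), 1.25 (P013), 0.77 (P014), 0.84 (P016), 0.78 (P017), 1.09 (P018), 1.31 (P019) and 1.08 (P021). On the − strand it ranged from 0.36 with P022 to 1.42 with P009.

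Paired with its own promoter in the vector, the Klf2 fragment gave 0.84 ± 0.15 on the + strand and 0.89 ± 0.17 on the − strand, with adjusted p-values of 0.015 and 0.013. With this vector, values in replicate 1 were low for insert and control alike. The + strand construct had activities of 1.00, 1.97 and 1.73, and the control inserts 0.63, 1.05 and 0.90.

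Against control inserts, the 2 largest positive differences of single constructs were those of P003 and P018 with the weakest vector, P001. P003 on the − strand with this vector had activities of 0.80, 0.56 and 0.69 while the controls averaged 0.14, 0.18 and 0.21, a difference of 1.96 ± 0.46 (adjusted p = 8.9e-06). P018 on the − strand with the same vector had 0.55, 0.58 and 0.67, a difference of 1.79 ± 0.14. In both constructs every replicate exceeded the highest replicate mean of the controls. Their baseline rests on the 10 control constructs with P001. With 0.1 added to all activities before log2, the differences were 1.48 for P003 − and 1.34 for P018 −, and 1.56 for P016 + with P009. In the vector without a promoter, P003 − had activities of 0.26, 0.38 and 0.37, and P018 − 0.38, 0.53 and 0.52. After P016 with P009 followed P018 − with P019 at 1.46, P003 − with P009 at 1.45 and P023 + with P022 at 1.45. P018 − with P019 was at 0.85 when the lowest 10% of constructs by activity were left out. In P023 + with P022 activity was 7.20, 6.73 and 8.23, against 2.70, 2.50 and 2.93 for the controls. The order of these constructs depends on the baseline. Against cCRE inserts of the same sub-library, P016 + with P009 (1.37) and P018 − with P019 (1.32) exceeded P003 − (1.30) and P018 − (1.14) with P001. Against the vector promoter alone, P018 − with P019 was at 1.26, P003 − and P018 − with P001 at 0.94 and 0.77, P016 + with P009 at 0.94, P003 − with P009 at 0.67 and P023 + with P022 at 0.83.

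At the other end, 5 of the 6 lowest constructs carried P008 on the − strand. With the Ap1m1-locus vector P014 its activity was 0.34, 0.31 and 0.35 against control means of 1.23, 1.15 and 1.04, a difference of −1.77 ± 0.18 (adjusted p = 1.6e-06), or 0.29-fold. With P018 the difference was −1.57, with P017 −1.45, with P016 −1.43 and with P021 −1.23. P004 on the − strand with P016 was at −1.26 ± 0.13. In each of these 6 constructs all 3 replicates were below the control mean of their own replicate.

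The dependence on the vector was tested as the departure of a construct from the mean of the same insert-strand in its other vectors. It passed the threshold in 265 of 417 promoter constructs (63.5%), beside 66.8% over all inserts and 80.1% among controls, so the promoters did not exceed the background. The 5 largest departures were P003 − with P001 (1.39 ± 0.37), P012 + with P013 (1.14 ± 0.29), P008 − with P022 (1.07 ± 0.06), P011 + with P001 (0.99 ± 0.02) and P024 + with P009 (0.88 ± 0.06). P008 on the − strand, low elsewhere, was thus close to the controls with the Smim7 vector P022, at −0.35, −0.15 and −0.07 in replicates 1, 2 and 3 (adjusted p = 0.24). P012 on the + strand reached 1.26 with the Fam32a vector P013, where activity was 1.87, 2.33 and 1.88 against 0.96, 0.84 and 0.75, and averaged 0.28 over its vectors. The departures of P003 − and P011 + with P001 also hold the level common to promoter inserts in that vector, whose median was 0.58.

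A promoter inserted behind itself did not form a class of its own. Of the 19 constructs with the same fragment as insert and vector, 7 lay above and 12 below the mean of that insert-strand in other vectors, with a median departure of −0.08, and 13 departures passed the threshold. P001 departed upward on both strands (0.68 and 0.65), P009 downward on both (−0.45 and −0.55), as did P014 (−0.35 and −0.42), P017 (−0.33 and −0.38) and P018 (−0.31 and −0.27). P019 departed upward on both (0.28 and 0.22). P016 departed downward on the + strand (−0.27) and was at 0.11 on the − strand. P021 was at −0.03 and 0.11, P022 at 0.09 and −0.08, and P013 at −0.01 on the − strand, none of which passed. A departure also holds the level common to all promoter inserts in that vector, which was above the others with P001 and below them with P014 and P017, as given above.

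Most inserts differed between strands, and so did the controls. The difference of + minus − over shared vectors passed the threshold in 17 of 21 promoter fragments with both strands, 9 with the + strand higher and 8 with the − strand higher, beside 82.7% over all inserts and 100% of the 20 controls. The largest was that of P008, with 1.07, 0.99 and 0.86 in replicates 1, 2 and 3 (mean 0.97 ± 0.11), the + strand being higher in 10 of 10 vectors. P002, which lies inside Zfp882 just after P001, differed by −0.82 ± 0.05. Its − strand was called higher than the controls at 0.73 and its + strand was at −0.09 (adjusted p = 0.08), and the − strand was above the + strand in all 10 vectors. P019 differed by 0.67 ± 0.06, with the + strand higher in 9 of 10 vectors.

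The other differences that passed had sizes from 0.14 (P017) to 0.49 (P025 and P001), and P007, P010, P011 and P023 did not pass (adjusted p from 0.12 to 0.59). The strands of the strongest inserts differed little beside their means, by 0.28 for P016, −0.16 for P018 and 0.15 for P021. Over the 21 fragments the + and − means correlated with Pearson's r of 0.70 and Spearman's rho of 0.64, and had the same sign in 16. Over 69 cCREs r was 0.56 and over the 20 controls 0.18. Points of a correlation share vectors and control means, and it is given as a description.

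Fragments with high promoter activity on their own were not always the high ones downstream. In the Upstream assay of the same series, the authors' deposited mean activity of the fragment alone correlated with the downstream difference with r = 0.40 and rho = 0.40 over 43 insert-strands, on the log2 scale. P022 on the + strand had the highest activity alone, 18.6, and P017 on the + strand had 13.99, yet their downstream differences were 0.29 and 0.38. P021 combined an activity alone of 7.92 on the + strand with the second highest downstream difference, 1.13. P023 was weak alone, 0.23 on the + strand and 0.15 on the − strand, and among the highest downstream. P001 on the + strand and P019 on the − strand had activities alone of 1.16 and 4.44 and were called lower than the controls downstream.

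The relation was closer with the same inserts in the Downstream vector that has no promoter. There the log2 activity and the difference in promoter vectors correlated with r = 0.75 and rho = 0.71 over 43 insert-strands. These constructs share no plasmid with the ones described above, but both come from the same 3 transfections. In that vector the promoters had a median of 0.47 above the mean of the control inserts, and none exceeded the highest control, at 2.37. The cCRE inserts had the same median, 0.47, and 6 of 137 exceeded the highest control. The median control lay at −0.34 relative to the control mean. P018 on the − strand was the highest promoter, with activities of 0.38, 0.53 and 0.52, and P004 on the − strand the lowest, with 0.04, 0.04 and 0.04. P008 on the − strand, lowest with promoter vectors, had activities of 0.07, 0.10 and 0.09 there, or −0.23 relative to the controls.

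For 290 promoter pairs both assays held the same insert-strand with the same second promoter. Each assay's values were set against its cCRE constructs with that promoter, and the Upstream ones are the authors' means. Across these pairs the values correlated with r = 0.47 and rho = 0.51, and averaged per insert-strand with r = 0.61 over 39 with at least 3 pairs. P018 on the − strand was at 1.57 upstream and 1.05 downstream, P021 on the + strand at 1.43 and 0.93, and P023 on the − strand at 0.14 and 0.49. P004 on the − strand was low in both, at −1.03 and −1.03. P022 on the + strand gave 2.28 upstream and 0.13 downstream, and P008 on the − strand −0.17 upstream and −1.50 downstream.

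None of the motifs searched was present in the printed windows of all 4 high fragments. P016 has GC boxes in its window and P021 has one, P018 and P023 have a CCAAT box and no GC box, and the low P004 has both. Of the 16 fragments with at least 240 of the 250 bases in a RefSeq window, 8 held a GC box and 8 a CCAAT box, against 32.7% and 33.8% of 32851 windows of 250 bases. The ETS core (CCGGAAG) was found in P009 and P013, against 6.91% of windows, and the NRF1 motif (GCGCATGC) in P019 and P022, against 2.26%. P001 alone among these 16 windows held the YY1 motif (0.606% of windows) and P025 alone the TATA box (TATAAA, 12.4%). The YY1 motif was not particular to P001. It was also found in P017, in 238 bases before the start of Gm46043, a window too short to be counted here. The CRE (TGACGTCA, 1.55%), octamer (ATGCAAAT, 1.60%), ESRRB (TCAAGGTCA, 0.387%), STAT (TTCCNGGAA, 0.913%) and CTCF core (AGGGGGCG, 5.39%) motifs were not in the 16 windows. Motifs were searched on both strands, and the CTCF core shares letters with the GC box. A match is a description of letters, and the windows cover only part of each fragment.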

How the data were processed

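The authors' deposited activity is a linear ratio of cDNA to plasmid DNA barcodes per biological replicate. The Downstream mix has 3 cDNA samples and 2 plasmid DNA samples, so the ratios cannot each have a plasmid sample of their own. Which plasmid sample entered which ratio is not given in the sources used here. Bowtie2 and mm10 are named per the submitters' processing notes, without a role. How barcodes were counted and filtered is not given in the sources used here, and the depth behind each value is unknown. Another 6 value columns of the table were given to no sample. Of these the deposited boost index, a log2 value, was only checked. It equalled the mean of the 3 log2 activities minus log2 of a basal median, for all 2364 constructs within 0.001.

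Activities were taken to log2 without a pseudocount. limma 3.58.1 (R 4.3.3) compared the 3 replicates of a construct with the 3 control means, without a block; insert-strands were averaged over at least 3 vectors. The p-values measure the spread between transfections of one plasmid mix and leave out differences between plasmid preparations. Construct and controls of 1 replicate number come from the same transfection, and their deviations from the group means correlated at 0.90, 0.88 and 0.85 in replicates 1, 2 and 3, so the numbers pair the samples. Replicates correlated at 0.970 to 0.985 over all constructs. The fits were tested on simulated data with known differences. There both sides of a comparison varied independently, unlike the correlated deviations above, so the fits were not tested under such pairing.

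Members, motif lists and tests were chosen with earlier results of these data known. Named by rule were every inserted promoter, the 4 highest and 4 lowest insert-strands, the 6 highest and 6 lowest constructs past the threshold, each fragment paired with itself, P016 in every vector, the 3 largest strand differences and the 5 largest departures. Fragment coordinates are as deposited; gene starts come from RefSeq tables of GRCm38.p6, and only 16 of 23 fragments held at least 240 of the 250 bases of a promoter window there, so base composition was not compared.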

Additional observations from a re-analysis of the deposited data

How the results depend on the processing

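The total of called promoter inserts, both directions together, stayed within 1.5 times its value under every alternative run, but the counts by direction did not, as given with the results for the block, for replicate 2 and for the baselines. Per construct, calls lower ranged from 33 without replicate 2 to 172 against the vector promoter alone (59 in the results), and calls higher from 75 to 246 (188). The 28 constructs, insert-strands, strand differences and departures named as highest, lowest or largest kept their direction and side of the threshold in 338 of 338 alternative fits. They were picked for large values past the threshold, so this was likely beforehand. It does not extend to the other inserts, whose calls changed with the baseline. Of the 338 fits, 17 moved the value by over 1.5 times, 12 of them against the vector promoter alone. With the replicate block, that is, on differences within each transfection, 356 constructs were called (246 higher, 110 lower) in place of 247, 36 insert-strands in place of 35, 19 strand differences in place of 17 and 311 departures in place of 265. Leaving out each replicate in turn gave 167 to 258 constructs, 34 to 35 insert-strands, 16 to 17 strand differences and 227 to 252 departures, and a median difference of 0.24 to 0.28. That median, 0.26, moved with the baseline. It was 0.34 with random inserts only as controls, 0.37 against the median control, 0.16 without the lowest 10% of constructs by activity, and 0.056 against the median of all constructs with the vector. It reversed to −0.21 against the vector promoter without an insert. Among alternatives chosen after seeing the data, it was 0.030 against cCRE inserts of the same sub-library and 0.20 without the P001 vector. Barcode numbers were not analysed here, so how depth limits single constructs is unknown.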
